A study of Mus musculus with 2 samples.

Results

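Serum amyloid A and 5 further acute-phase genes were examined in cultured intestinal subepithelial myofibroblasts (ISEMFs), the contractile stromal cells that lie beneath the crypts of the intestine. The members were Saa1, Saa2, Saa3, Lcn2, Hp, Ptx3, Lbp and Orm1, chosen by name from the 37309 genes of the deposited table because their levels in these libraries were already known. All 8 were found by symbol, each with 1 gene identifier. The supportive ISEMFs were grown from the small intestine of 5-day-old C57BL/6 neonates, and the non-supportive ISEMFs from the small intestine of adult C57BL/6 mice, which the study's methods give as 2 months old. Both are wild type, were isolated by the same enzymatic procedure and were grown in a serum-containing medium with insulin, transferrin and epidermal growth factor. The names refer to how well crypts grow on the cells when no R-spondin1 is added. Each population was sequenced as 1 library, so no difference has a replicate check, and population, age and isolation cannot be told apart. Names within the deposited data also carry a P number that differs between the libraries, and what it stands for is not stated.

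The acute-phase response is the change in secreted proteins that follows infection or injury, driven mainly by interleukin-1, interleukin-6 and tumor necrosis factor through NF-κB, C/EBP and STAT3. The liver makes most of these proteins for the blood, and several are also made locally by fibroblasts, macrophages and epithelium. Serum amyloid A proteins are small apolipoproteins. In the mouse, Saa1 and Saa2 are the main forms made by the liver, though not by the liver alone, and Saa3 is made mainly in other tissues. Lcn2 encodes lipocalin 2, which withholds iron from bacteria by binding their siderophores, and Hp encodes haptoglobin, which binds free hemoglobin. Ptx3 is a long pentraxin of local origin that binds microbes and complement, Lbp carries bacterial lipopolysaccharide to CD14, and Orm1 encodes an α1-acid glycoprotein.

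In what follows, pairs of values are given for supportive ISEMFs first and non-supportive ISEMFs second. Reads on genes numbered 50674472 and 49615497. As a limit set here, a count of 0 was taken as 3 reads, which make up 5.92e-06% and 6.05e-06% of these. Levels are read counts and RPKM, which divides the reads of a gene by its exon length and by the size of the library. Intervals and limits cover counting error only. Acta2, the gene of α-SMA, had RPKM values of 908 and 1410, and Vim had 325 and 407, while Des was low at 0.575 and 3.40. The libraries also differed in their Y-linked genes. Ddx3y had 0 and 979 reads, whereas Xist had 108734 and 66489. The labels do not give the sex of the source animals, and sex cannot be told apart from population either.

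Saa3 was the one member expressed at a high level, and its reads came from non-supportive ISEMFs alone. It had 0 and 2649 reads, and the latter amounted to an RPKM of 71.8. This placed it at rank 270 among 22379 protein-coding genes in the non-supportive ISEMFs, above 98.8% of them. Against 3 reads, the limit for a count of 0, non-supportive ISEMFs were 909-fold higher, with the 2649 reads taken as exact. Its log2 ratio of supportive over non-supportive, computed from RPKM with 0.1 added, was -9.49, the lowest of all protein-coding genes. Of the 7318 protein-coding genes without a read in the supportive library, none but Saa3 reached its RPKM in the non-supportive library. By read count, which leaves exon length aside, 2 of them reached its 2649 reads, with Saa3 itself among these. In a bulk library, fewer cells of a type and less RNA per cell cannot be told apart.

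The Saa genes lie together on mouse chromosome 7, where Saa1 to Saa4 span 42.3 kb of the mm9 assembly. Saa3 is at chr7:53967368-53971046 on the minus strand, Saa1 at chr7:53995871-53998350 on the minus strand and Saa2 at chr7:54007203-54009684 on the plus strand. Saa1 had 0 reads and 1 read, and Saa2 had 0 and 3 reads. Both were at or under the limit of 3 reads in both libraries, so no fold is given for either. The limit stands for RPKM values of 0.0694 and 0.0714 in the case of Saa1. Saa4, which is expressed constitutively in the liver, had 1 and 3 reads. The high count of Saa3 in non-supportive ISEMFs was thus not shared by the other genes of the cluster.

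**Figure D1:**
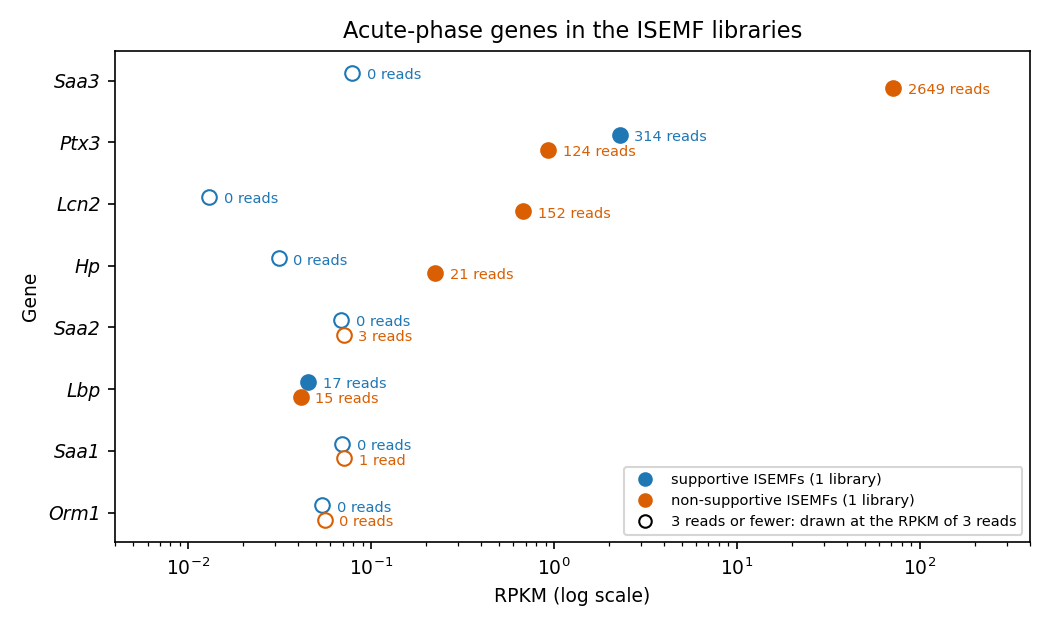
RPKM on a log axis for each of the 8 genes, with 1 point for the supportive and 1 for the non-supportive library and the read count beside it. Open points stand for 3 reads or fewer and are drawn at the RPKM of 3 reads. Saa3 lies at 71.8 in non-supportive ISEMFs with 0 reads in supportive ISEMFs, and Ptx3 is higher in supportive ISEMFs.

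Reads that mapped to more than 1 place were left out by the authors, and Saa1 and Saa2 are near copies. The first 90 coding bases of 3 Saa genes are shown because they make clear how far a short read can separate them. Capitals mark bases that differ from Saa1.
Saa1 coding start: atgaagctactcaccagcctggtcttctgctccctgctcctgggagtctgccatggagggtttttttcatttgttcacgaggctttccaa
Saa2 coding start: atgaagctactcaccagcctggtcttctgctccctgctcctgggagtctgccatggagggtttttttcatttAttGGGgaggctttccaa
Saa3 coding start: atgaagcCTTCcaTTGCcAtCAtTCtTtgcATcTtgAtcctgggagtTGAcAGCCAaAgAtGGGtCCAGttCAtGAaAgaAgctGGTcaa
Over the whole coding sequence of 369 bases, Saa1 and Saa2 differed at 18 bases (95.1% identity), while Saa1 and Saa3 differed at 99 (73.2% identity). In the stretch shown, Saa2 differed from Saa1 at 4 bases and Saa3 at 44.

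Each coding sequence was cut into all windows of 50 bases, the length of the reads, and matched to the rest of the mm9 genome and to the coding transcripts of other genes. For Saa3, 267 of 320 windows (83.4%) had no match elsewhere with up to 2 mismatches. For Saa1 only 118 of 320 windows (36.9%) were free of such a match, and for Saa2 it was 161 (50.3%). Exact matches elsewhere made up 17.5% of the windows of Saa1, 14.7% of those of Saa2 and 2.81% of those of Saa3. Low counts of Saa1 and Saa2 are therefore less certain than those of Saa3, though both genes keep windows of their own. The 3 Orm genes are near copies as well, and Orm1 kept 408 of 575 windows (71.0%). All coding windows of Lcn2, Hp, Ptx3 and Lbp were without a match elsewhere.

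**Figure D2:**
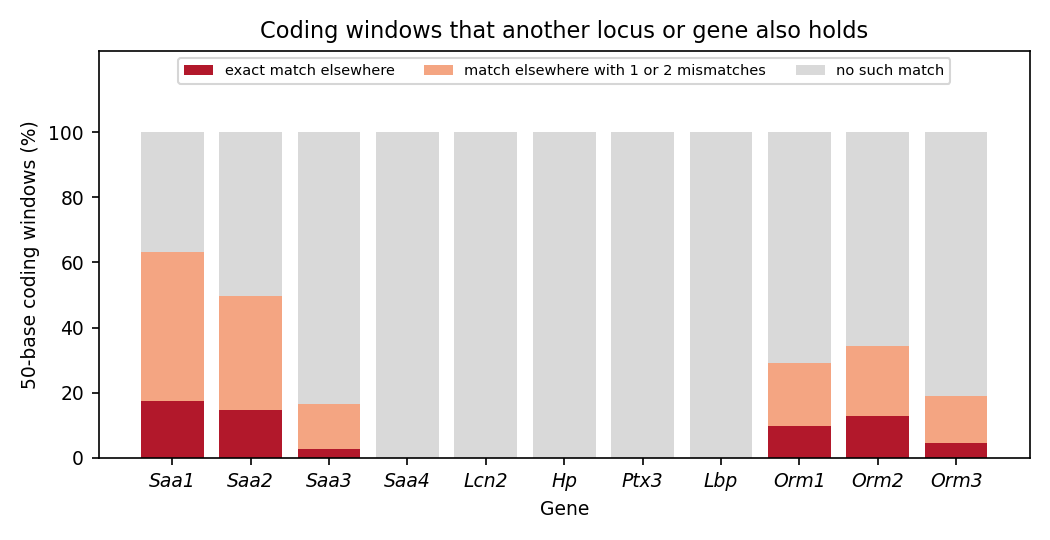
Share of 50-base windows of the coding sequence, in percent, for each gene and for Saa4, Orm2 and Orm3, split by whether the window matches another place exactly, matches with 1 or 2 mismatches, or has no such match. Saa1 and Saa2 share most with other places, at 63.1% and 49.7% of windows with up to 2 mismatches, and Lcn2, Hp, Ptx3 and Lbp share none.

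Lcn2 and Hp had reads only in the non-supportive library, at far lower levels than Saa3. Lcn2, at chr2:32240153-32243317 on the minus strand, had 0 and 152 reads, with a level of 0.678 RPKM in non-supportive ISEMFs. The difference was at least 52.1-fold. Hp, at chr8:112099030-112103072 on the minus strand, had 0 and 21 reads, with a level of 0.225 RPKM in non-supportive ISEMFs. On the same basis, the difference for Hp was 7.20-fold. Both stayed below an RPKM of 1, so by level they ranked at 9238 and 11083 of the protein-coding genes in that library. The reads of Lcn2 were divided by an exon length of 3228 bases, more than its annotated span and its coding sequence of 603 bases. Its RPKM, its rank and its place below an RPKM of 1 depend on that length.

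Ptx3 went the other way. The gene, at chr3:66023809-66029728 on the plus strand, had 314 and 124 reads, at RPKM values of 2.29 and 0.929. Supportive ISEMFs were 2.46-fold higher (95% exact interval, 1.99 to 3.05), and the log2 ratio was 1.21. Ptx3 overlaps Veph1, a gene on the opposite strand, but 0 exon bases are shared, and Veph1 had 55 and 2 reads. Whether the counting used strand is not given in the sources used here.

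Lbp and Orm1 stayed at the bottom of the range. Lbp, at chr2:158132229-158158588 on the plus strand, had 17 and 15 reads, with RPKM values of 0.0454 and 0.0412. The ratio of 1.10 had a 95% exact interval of 0.517 to 2.37, so a difference was not detectable at this depth. Orm1, at chr4:63005594-63009197 on the plus strand, had 0 reads in both libraries, and the limit of 3 reads stands for RPKM values of 0.0542 and 0.0557. Its copy Orm2 had 13 reads and 1 read, a ratio of 12.6 (95% exact interval, 1.90 to 537), and Orm3 had 4 and 3 reads.

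Over the 8 genes, 2 reached an RPKM of 1 in either library. Saa3 was at least 2-fold lower and Ptx3 at least 2-fold higher in supportive ISEMFs, where 9.27% and 9.01% of the 10086 genes of the table at that level were lower and higher. These values chose the members, so the counts are a description. The median log2 ratio of the pair was -4.14, or -4.31 with the 0 reads of Saa3 taken as 3. It was -0.07 for all genes at that level. The median of the pair lies between values of opposite sign. At 4-fold, 1 member was lower and 0 were higher, against 3.29% and 3.24% of these genes. With no minimum on RPKM, 3 members were lower and 1 was higher, against 5.05% and 4.76% of all 37309 genes. In total the members held 331 reads in the supportive library, 94.9% of them from Ptx3, and 2965 in the non-supportive library, 89.3% of them from Saa3.

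**Figure D3:**
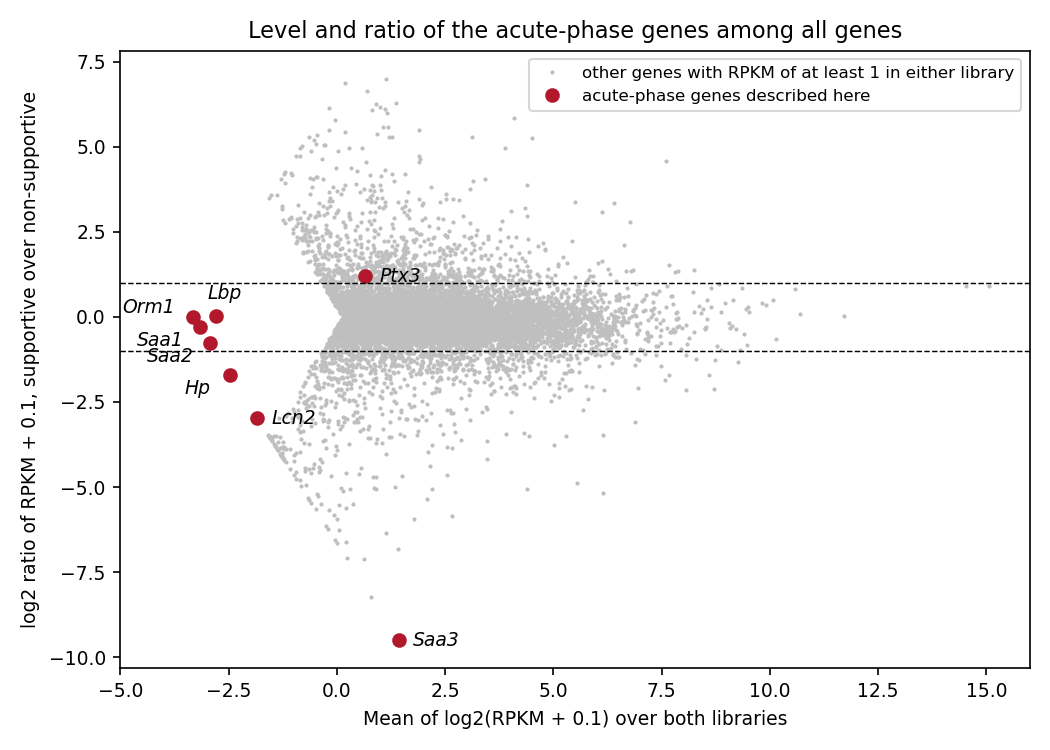
The log2 ratio of supportive over non-supportive ISEMFs against the mean of log2(RPKM + 0.1) over both libraries, with the 8 genes in red and, in grey, other genes whose RPKM reached 1 in either library. Dashed lines mark a 2-fold difference. Saa3 lies at -9.49 at the lower edge and Ptx3 at 1.21, while Saa1, Saa2, Lbp and Orm1 lie at the left at very low levels, where the added 0.1 draws the ratio toward 0.

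The protein-coding genes most like Saa3, by distance in log2 ratio and mean log2 RPKM over these libraries, were Tyrobp, Ctss and Rgs16. Tyrobp, an adaptor of receptors on myeloid cells, had 0 and 1174 reads. Ctss, a lysosomal protease of antigen-presenting cells, had 4 and 2255, and Rgs16, a regulator of G-protein signaling, had 25 and 4575. Their distances from Saa3 were 1.41, 2.51 and 2.67 on the log2 scale, so none was close. With 2 libraries such likeness describes only the same split of reads.

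The sequences upstream of the start sites are given for 4 genes, since Saa3 and Lcn2 had reads in non-supportive ISEMFs alone, Ptx3 was higher in supportive ISEMFs and Saa1 is a neighbour of Saa3 almost without reads. RefSeq entries on GRCm38.p6 were found for 5 of the 8 genes, Saa1, Saa2, Saa3, Lcn2 and Ptx3, and no upstream sequence is given here for Hp, Lbp and Orm1. Each matched mm9 exactly at 1 place, and the coordinates are those of mm9. Sequences are written 5′ to 3′ on the strand of the gene up to the base before the start of the annotated gene, and capitals mark a match to the C/EBP-type motif TTGCNNAA on either strand.
Saa3 upstream, chr7:53971047-53971296 (- strand): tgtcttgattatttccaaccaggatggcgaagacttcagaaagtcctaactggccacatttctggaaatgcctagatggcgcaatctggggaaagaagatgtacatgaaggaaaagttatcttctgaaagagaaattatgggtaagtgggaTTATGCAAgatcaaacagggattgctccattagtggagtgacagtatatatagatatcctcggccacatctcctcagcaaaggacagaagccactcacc
Saa1 upstream, chr7:53998351-53998600 (- strand): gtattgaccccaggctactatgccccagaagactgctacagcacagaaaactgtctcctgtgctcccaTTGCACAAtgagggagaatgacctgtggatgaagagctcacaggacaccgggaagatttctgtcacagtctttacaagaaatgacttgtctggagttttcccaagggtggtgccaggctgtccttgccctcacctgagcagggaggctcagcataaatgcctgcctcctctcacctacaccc
Lcn2 upstream, chr2:32243318-32243509 (- strand): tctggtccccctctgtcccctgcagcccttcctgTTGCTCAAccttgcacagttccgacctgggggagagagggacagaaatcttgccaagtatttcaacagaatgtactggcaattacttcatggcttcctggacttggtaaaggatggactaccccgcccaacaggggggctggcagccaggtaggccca
Ptx3 upstream, chr3:66023559-66023808 (+ strand): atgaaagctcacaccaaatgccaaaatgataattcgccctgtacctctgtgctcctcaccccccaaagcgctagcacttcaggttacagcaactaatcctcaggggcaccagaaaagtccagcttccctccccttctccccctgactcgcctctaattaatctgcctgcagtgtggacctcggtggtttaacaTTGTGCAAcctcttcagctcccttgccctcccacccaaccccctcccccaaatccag

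All 5 upstream regions of 250 bases held 1 match to TTGCNNAA, a motif found in 9.56% of the 32851 promoter entries. It read TTATGCAA in Saa3, 99 to 92 bases upstream of the RefSeq start site, TTGTGCAA in Ptx3, 57 to 50 bases upstream, and TTGCTCAA in Lcn2, 216 to 209 bases upstream. In Saa3 and Ptx3 the match was on the strand opposite to the gene. The Lcn2 position counts from the RefSeq start site, and only 192 of the 250 bases searched are printed for it. The rest lie within the annotated gene. Saa1 held TTGCACAA 182 to 175 bases upstream, and Saa2 held the same letters 183 to 176 bases upstream, in upstream regions that were 95.6% identical. The motif was thus present in genes with reads in either library and in genes almost without reads. The other motifs searched were the NF-κB consensus, taken as a fixed pattern and found in 3.90% of all entries, the STAT-type motif TTCNNNGAA in 7.02%, both on either strand, and the box TATAAA on the strand of the gene in 7.59%. Exact matches to these patterns were not in the 5 windows, and the capitals overlap no other motif searched. Sites that depart from the patterns or lie farther upstream were not looked for, so their presence was not tested.

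Of 26 other acute-phase genes, 3 reached an RPKM of 1 in either library, and 2 of these were at least 2-fold lower in supportive ISEMFs. C3, the central complement component, had 23 and 400 reads, and its RPKM was 17.9-fold higher in the latter (95% exact interval, 11.8 to 28.6). Cp, which encodes the copper-carrying ferroxidase ceruloplasmin, had RPKM values of 0.526 and 2.25, a 4.27-fold difference (3.89 to 4.70). Slc39a14, a zinc and iron importer, was within 2-fold at 4.70 and 3.84. The median log2 ratio of these 3 was -1.91. Below an RPKM of 1, Serpina3n, an inhibitor of serine proteases, had 33 and 16 reads, and Steap4, a metalloreductase, had 11 and 101. The liver genes Crp, Apcs, Hamp, Fga, Fgg and Serpina1a had 0 reads in both libraries.

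None of the 7 negative acute-phase genes, which fall in blood during the response, reached an RPKM of 1. Alb and Ttr had 0 reads in both libraries. Trf, the gene of transferrin, had 1 read and 71 reads, a ratio of 73.1 with an exact interval of 12.7 to 2926.

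Of 12 cytokines that induce acute-phase genes, 5 reached an RPKM of 1, with 2 at least 2-fold lower and 1 at least 2-fold higher in supportive ISEMFs and a median log2 ratio of -0.49. Il1a had 2 and 218 reads, a ratio of 112 (95% exact interval, 30.7 to 932). Il6 had 129 and 294 reads and was 2.35-fold higher in non-supportive ISEMFs (1.90 to 2.91). Tnf had 0 and 28 reads, Osm 0 and 12, and Il1b 0 and 10, all under an RPKM of 1. Ctf1, a cytokine of the interleukin-6 family, was at RPKM values of 2.81 and 0.557, a 5.05-fold difference (3.74 to 6.93). Lif and Clcf1 of the same family were within 2-fold.

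The receptors had another order. Of 14 genes, 8 reached an RPKM of 1, of which 4 were at least 2-fold higher in supportive ISEMFs and 1 lower, with a median log2 ratio of 0.74. Lifr, the receptor of leukemia inhibitory factor, was at RPKM values of 9.08 and 0.857, a 10.6-fold difference (95% exact interval, 9.80 to 11.5). Osmr, the oncostatin M receptor, was at 35.2 and 10.4, a 3.38-fold difference. Il6st, the signaling chain shared by the family, was at 76.2 and 37.5, while Il6ra stayed below 1 at 0.373 and 0.448. Il1r1, the interleukin-1 receptor, was lower in supportive ISEMFs, at 1.65 and 3.42.

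Of 16 transcription factors and feedback genes, 8 reached an RPKM of 1, with 2 at least 2-fold lower and 0 higher in supportive ISEMFs and a median log2 ratio of -0.06. Nfkbiz, a nuclear member of the IκB family that acts with NF-κB at a subset of its targets, was at RPKM values of 2.17 and 15.0, a 6.91-fold difference (95% exact interval, 6.48 to 7.37). Nfkbia, the feedback inhibitor IκBα, was at 2.56 and 5.63. Stat3 was at 11.5 and 7.83, Rela at 5.91 and 5.96, and Cebpb at 1.76 and 1.70, all within 2-fold. Cebpd and Socs3 were below an RPKM of 1 in both libraries, with 60 and 67 reads and with 141 and 73 reads. Cebpa, also below 1, had 13 and 76 reads and was 6.02-fold higher in non-supportive ISEMFs (95% exact interval, 3.32 to 11.8).

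Of 19 receptors and partners of the members, 9 reached an RPKM of 1, of which 5 were at least 2-fold lower and 2 higher in supportive ISEMFs, with a median log2 ratio of -2.99. Mmp9, a gelatinase that forms a complex with lipocalin 2, had 0 and 387 reads, a difference of 133-fold against 3 reads. Lrp2, the endocytic receptor megalin that takes up lipocalin 2, was at RPKM values of 0.0813 and 1.76. Cd36, a scavenger receptor that binds serum amyloid A, was at 1.14 and 9.74. C1qa and C1qb, the complement chains bound by Ptx3, had 0 reads in supportive ISEMFs, and 152 and 296 reads in non-supportive ISEMFs. C1qa and Cd14, another gene of this list, also stand in the list of macrophage markers. C1qb is not among those markers, though its reads too came from non-supportive ISEMFs alone. Tnfaip6, whose protein assembles with Ptx3 in the hyaluronan matrix, was at 1.23 and 0.168, 7.29-fold higher in supportive ISEMFs (95% exact interval, 4.55 to 12.3). Ptx3 and this partner were thus both higher in supportive ISEMFs. Tlr4 and Ly96, which receive the lipopolysaccharide that Lbp carries, were within 2-fold, at 4.55 and 5.41 and at 10.7 and 11.2. Cd14, below an RPKM of 1 at 0.0890 and 0.989, had 10 and 108 reads. It was 11.1-fold higher in non-supportive ISEMFs (95% exact interval, 5.82 to 23.8).

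**Figure D4:**
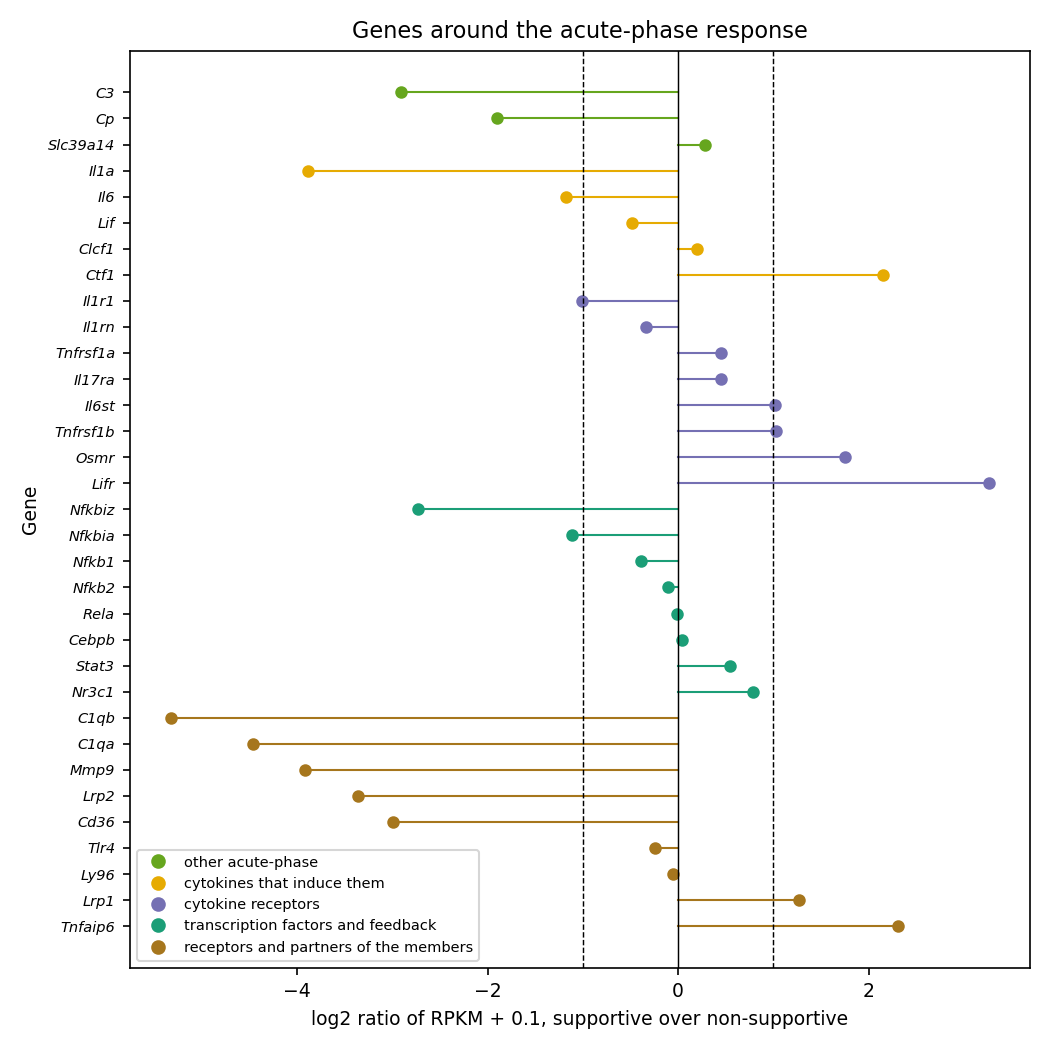
The log2 ratio of supportive over non-supportive ISEMFs, from RPKM with 0.1 added, for each gene of the 5 lists around the acute-phase response that reached an RPKM of 1, colored by list. Dashed lines mark a 2-fold difference. C1qb, C1qa, Mmp9 and Il1a lie farthest to the left, and Lifr, Tnfaip6 and Ctf1 farthest to the right.

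Over the 94 genes of these 6 lists, 33 reached an RPKM of 1, with 7 at least 2-fold higher, 12 lower and 14 within 2-fold, where 9.01% of all genes at that level were higher and 9.27% lower. The median log2 ratio was -0.11 against -0.07 for all these genes.

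Macrophage markers moved with Saa3, Lcn2 and Hp. Of 11 macrophage genes in the table, 8 reached an RPKM of 1 and all 8 were at least 2-fold lower in supportive ISEMFs. Of all genes at that level, 9.27% were lower. The RPKM summed over the 11 genes was 6.95 and 126, of which Lyz2 alone made 6.31 and 72.7. Of the 11 genes, 6, among them Tyrobp, Ptprc, Itgam and Emr1, had 0 reads in the supportive library. Macrophages as well as fibroblasts are known to make Saa3 and Lcn2, and the part of macrophage transcripts in these differences was not tested. The 10 hepatocyte markers summed to RPKM values of 0.0377 and 0.0348, with Alb, Ttr, Cyp2e1, Cps1, Tat and Serpina1a at 0 in both libraries. The 10 neutrophil markers summed to 0.0325 and 0.148, with S100a9, Camp, Ltf, Elane and Ly6g at 0 in both.

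The remaining lists were low or went both ways. The 11 markers of intestinal epithelium summed to RPKM values of 7.82 and 3.41. Lgr5 made 7.22 of the former and Krt20 made 3.13 of the latter, with Cdx1, Cdx2 and Chga at 0 reads in both. The 8 adipocyte markers summed to 2.26 and 4.52, mostly Fabp4 and Pparg, with Plin1, Cidec and Retn at 0 in both. The 8 mesothelium markers summed to 0.149 and 0.935, and the 10 myofibroblast markers to 2586 and 2736.

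**Figure D5:**
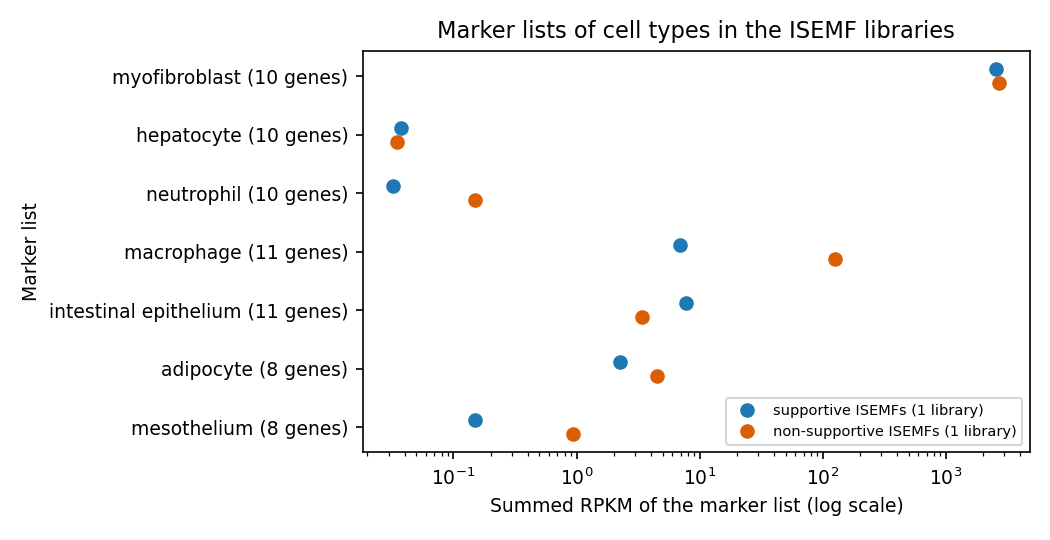
Summed RPKM on a log axis for each list of cell type markers, with 1 point for each library. The macrophage list lies at 6.95 in supportive and 126 in non-supportive ISEMFs, and the hepatocyte and neutrophil lists lie below 1 in both.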

How the data were processed

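RNA was sequenced from 1 library of supportive and 1 of non-supportive ISEMFs. The authors prepared TruSeq cDNA libraries, aligned single-end reads of 50 bases to mm9 with TopHat (TopHat2 2.0.4 per the submitters' processing notes), kept unique hits with up to 2 mismatches and counted reads per gene with HTSeq 0.5.4p3. The deposited counts are whole numbers of reads that the authors did not normalize. For RPKM, the authors divided each count by exon length and by library size (71463423 and 69449374 reads). The deposited log2 ratio and DESeq p-values, and a table of 209 Wnt pathway genes that holds 0 of the members, were not used.

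A pseudocount of 0.1 was added to RPKM before log2 ratios were taken. Genes that reached 1 RPKM in 1 or both libraries entered the counts of 2-fold differences. Ratios carry the 95% Clopper-Pearson interval of the split of reads, and a fold against 0 reads was computed at 3 reads in that library. Such a fold takes the other count as exact and carries no interval. There is no test: edgeR's quasi-likelihood test needs replicates, and the members and lists were chosen with earlier results of these data known. The naming rule took the members, pathway genes at that minimum, led by the largest differences, marker genes by level and those at 0, and the 3 genes nearest to Saa3. Pathway genes below the minimum were named after their values were seen. Alternatives were other pseudocounts, minimums, scalings and a 4-fold threshold. Coordinates are from GENCODE vM1 on the same assembly, in which all 37309 gene identifiers were found. Coding sequences came from its transcripts, upstream sequences from RefSeq, and matches were found with BLAST 2.17.0 and Biopython 1.88. TMM factors came from edgeR 4.0.16 and size factors from DESeq2 1.42.0 in R 4.3.3. Other steps ran in Python 3.11.15 with pandas 2.3.3, scipy 1.17.1 and matplotlib 3.10.9.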

Additional observations from a re-analysis of the deposited data

How the results depend on the processing

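No paired analysis was possible because each population has 1 library, and for the same reason no library could be left out. Over 7 settings of pseudocount and scaling, the log2 ratio of Ptx3 was 0.77 to 1.33 and that of Saa3 was -16.13 to -6.19. The sign for Saa3, Lcn2 and Hp could not turn, since they had 0 reads in supportive ISEMFs. The ratios of Saa1 and Saa2, with 3 reads or fewer, reached -4.63 and -6.17 with a pseudocount of 0.001. The main counts were 1 member higher and 1 lower in supportive ISEMFs. With a pseudocount of 1, a minimum RPKM of 5 or a 4-fold threshold, 0 members were higher, and with no minimum or a minimum of 10 reads, 3 were lower. The median log2 ratio of the members was -2.71 and -7.42 with pseudocounts of 1 and 0.001, -9.49 with a minimum RPKM of 5, -0.54 with no minimum and -1.70 with a minimum of 10 reads.

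Over the whole table, 909 genes were higher and 935 lower. These counts were 578 and 621 with a pseudocount of 1, 412 and 466 with a minimum RPKM of 5, 1775 and 1885 with no minimum, 327 and 332 with a 4-fold threshold, and 1431 and 1576 with a minimum of 10 reads. Scaling moved the balance to more genes higher than lower, with 980 and 858 under TMM factors, 958 and 881 under median-of-ratios size factors and 1070 and 776 under totals without mitochondrially encoded genes, and gave 921 and 921 under totals of reads on genes. Of the pathway list genes, 12 were lower and 7 higher. The lower count was 3 with a minimum RPKM of 5 and 19 with no minimum or a minimum of 10 reads, and the higher count was 3 at 4-fold. Totals without mitochondrially encoded genes moved the median of all genes by 0.12 on the log2 scale. The minimum of 10 reads and the settings for the pathway lists were chosen after seeing the data. Differences of genes with few reads are limited by depth.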
